A study of Mus musculus with 5 samples.

Results

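Runx3-bound regions at gene promoters that also carried the chromatin mark H3K4me1 were described in IL-2-activated CD8-TC. A Runx3-bound region was included when its centre lay under 1 kb from the start (the annotated 5' end) of a protein-coding gene and when 1 bp or more of it lay in an H3K4me1-marked region. These marked promoter regions numbered 209 of 9135 Runx3-bound regions in all. A further 1570 Runx3-bound regions lay under 1 kb from a gene start and touched no H3K4me1-marked region (unmarked promoter regions), and 4442 marked regions lay over 5 kb from any gene start (marked distal regions). These 2 classes serve as the comparison.

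The libraries came from splenic CD8+ T cells of ICR mice, an outbred strain, that were isolated on anti-CD8 magnetic beads. The cells of every library had been TCR-activated for 2 days with plate-bound anti-CD3e and soluble anti-CD28 and then grown for 4 days with 100 u/ml IL-2, so that no resting cells and no cells without Runx3 enter the comparisons. The 5 libraries comprised 2 anti-Runx3 immunoprecipitations, 2 control precipitations with rabbit non-immune serum (NIS) and 1 anti-H3K4me1 immunoprecipitation in the labels. For each antibody a single set of peaks was called from the joined reads, and the lists hold positions only. No value below therefore has a replicate error, and the depth behind a region is unknown. Intervals are 95% intervals (Wilson for a share, Newcombe for a difference of shares) and cover counting error among the called regions only, and no p-value is given. Where a count was 0, the share said to be allowed is instead 3 counts out of the number examined. In a bulk population, a region bound in some of the cells and a region bound in all of them cannot be told apart.

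Runx3 is a transcription factor of the RUNX family, which binds DNA through its Runt domain as a heterodimer with CBFβ and is needed for the CD8+ T cell lineage, where it represses Cd4. RUNX proteins recognise a short sequence with 4 forms, named by the bases that vary, namely TGTGGT (the T and T form), TGTGGC (the T and C form), TGCGGT (the C and T form) and TGCGGC (the C and C form). H3K4me1, the monomethylated lysine 4 of histone H3, is abundant at enhancers, whereas the nucleosomes around active promoters usually carry the trimethylated form, which leaves a gap in H3K4me1 at the gene start. Promoters fall broadly into CpG-rich ones, typical of housekeeping genes, and CpG-poor ones, which often belong to tissue-restricted genes.

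The sequences of members at lymphocyte genes and of the members richest in RUNX motifs are shown first, because the marked promoter regions differed from the unmarked ones in the form of the RUNX motif. Each is read from the mouse assembly NCBIM37 (mm9) in the direction of the gene, lies outside annotated exons, and comes from the central 200 bp of the Runx3-bound region. Capitals mark RUNX motifs on either strand, so that TGTGGT also appears as its reverse complement ACCACA. The first set holds members with at least 2 RUNX motifs in that window. In Ing1 and Ltb4r1 a pair of motifs overlapped by 1 base and appears as 1 run of capitals.
Ing1 (chr8:11555289-11555356, plus strand): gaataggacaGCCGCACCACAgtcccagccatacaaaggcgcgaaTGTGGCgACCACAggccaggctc
Ltb4r1 (chr14:56384113-56384202, plus strand): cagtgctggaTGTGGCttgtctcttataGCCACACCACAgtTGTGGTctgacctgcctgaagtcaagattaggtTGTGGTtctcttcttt
Kcnn4 (chr7:25155046-25155107, plus strand): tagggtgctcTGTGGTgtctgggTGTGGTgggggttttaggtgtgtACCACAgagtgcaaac
Lmna (chr3:88314028-88314132, minus strand): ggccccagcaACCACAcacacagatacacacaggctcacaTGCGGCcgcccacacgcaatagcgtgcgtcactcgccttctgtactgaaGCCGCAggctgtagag
Tigit (chr16:43664359-43664398, minus strand): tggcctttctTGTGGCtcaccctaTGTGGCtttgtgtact
Gzmb (chr14:56881190-56881274, minus strand): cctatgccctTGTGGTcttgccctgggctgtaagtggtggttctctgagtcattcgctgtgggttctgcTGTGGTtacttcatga
Il2rb (chr15:78325637-78325691, minus strand): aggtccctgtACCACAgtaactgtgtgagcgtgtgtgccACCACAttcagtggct
Xcl1 (chr1:166866024-166866101, minus strand): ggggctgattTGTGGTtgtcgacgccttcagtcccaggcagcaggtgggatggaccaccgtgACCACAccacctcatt
Cx3cr1 (chr9:119977453-119977551, minus strand): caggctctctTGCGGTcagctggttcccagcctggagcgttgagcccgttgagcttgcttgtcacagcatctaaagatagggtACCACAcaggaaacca
The second set shows the closest pair of a RUNX motif with an ETS motif (AGGAAA, the variant that ends in G, or either of them with C as its opening base) or an AP-1 motif (TGACTCA, or the same with G as its middle base) at members of the gene lists used below, where the gap was at most 50 bp. Here capitals mark both motifs of the pair. ETS proteins such as ETS1 and AP-1 proteins such as FOS and JUN are transcription factors of activated lymphocytes. Of 16 members with such a pair, 13 had one outside annotated exons, and those reported here are shown.
Xcl1 (chr1:166866010-166866049, minus strand): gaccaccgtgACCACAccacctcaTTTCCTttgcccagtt
Prf1 (chr10:60760444-60760490, plus strand): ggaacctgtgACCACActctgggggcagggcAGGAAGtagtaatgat
Ifng (chr10:117877919-117877959, plus strand): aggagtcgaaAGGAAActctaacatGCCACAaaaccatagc
Ccl4 (chr11:83475758-83475807, plus strand): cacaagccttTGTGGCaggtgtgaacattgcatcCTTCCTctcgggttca
Unc13d (chr11:115939835-115939880, minus strand): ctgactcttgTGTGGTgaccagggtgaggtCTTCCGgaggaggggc
Gzmb (chr14:56881190-56881239, minus strand): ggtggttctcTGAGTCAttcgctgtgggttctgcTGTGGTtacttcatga
Cd96 (chr16:46120365-46120399, minus strand): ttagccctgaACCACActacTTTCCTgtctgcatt
Il2ra (chr2:11564338-11564400, plus strand): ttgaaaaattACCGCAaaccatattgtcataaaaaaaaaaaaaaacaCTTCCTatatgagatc
Arhgap15 (chr2:43604191-43604237, plus strand): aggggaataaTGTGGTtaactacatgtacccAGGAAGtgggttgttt
Cst7 (chr2:150396078-150396119, plus strand): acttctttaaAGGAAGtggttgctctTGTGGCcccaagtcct
Gimap1 (chr6:48668531-48668573, plus strand): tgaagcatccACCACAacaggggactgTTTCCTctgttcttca
Cx3cr1 (chr9:119977446-119977478, minus strand): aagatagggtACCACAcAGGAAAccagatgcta
Among the pairs shown, the gap between the motifs ranged from 1 bp in Cx3cr1 to 31 bp in Il2ra, and Gzmb held the AP-1 pair, at a gap of 17 bp. A match of letters is a description and was not tested as a binding site.

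Marked promoter regions were a minority of promoter-bound Runx3. Of the 1779 Runx3-bound regions under 1 kb from a gene start, 209 (11.7%, interval 10.3 to 13.3%) were marked. They lay under 1 kb from 218 of the 22350 protein-coding gene starts, which is 0.975% of the starts, whereas unmarked promoter regions lay at 7.91% of the starts. All 19 autosomes held members, from 1 of 39 promoter-bound regions on chromosome 18 to 23 of 162 on chromosome 11. Chromosome X held 0 members. On the autosomes alone the marked share was 11.9%, so X held few promoter-bound regions and its 0 says little. The members overlapped 214 H3K4me1-marked regions, of which 3 were shared by 2 members. Eya2, a transcriptional coactivator gene, was the gene with 2 members at its start, centred 557 bp and 54 bp upstream.

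Values near the limits show how the choice was made. The members just inside the distance limit were centred 992 bp upstream of Dusp2, a phosphatase of MAP kinases, 988 bp downstream of Gm10643 and 985 bp downstream of Sub1. Marked regions just outside it were centred 1001 bp downstream of Kri1, 1010 bp upstream of Ccdc114 and 1020 bp downstream of Gm10428. The smallest overlaps with H3K4me1 were 11 bp at Slc39a13 and 12 bp at B4galt1, and the nearest misses were gaps of 8 bp at Timm22, 12 bp at Gm5464 and 13 bp at Dhrs7.

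The overlap itself was often partial. Median overlap was 294 bp or 49.7% of the Runx3-bound region. H3K4me1 held the whole of 49 members (23.4%, interval 18.2 to 29.6%) and covered less than 50% of 107 members (51.2%, 44.5 to 57.9%). In marked distal regions the median overlap was 100%.

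H3K4me1 lay mostly on the upstream side. The side given for a member, here and below, counts only H3K4me1-marked regions that overlap its Runx3-bound region. In 128 members (61.2%, interval 54.5 to 67.6%) this H3K4me1 lay wholly upstream of the gene start, in 59 (28.2%, 22.6 to 34.7%) it covered the start, and in 22 (10.5%, 7.06 to 15.4%) it lay wholly downstream. No member had overlapping H3K4me1 on both sides with a free start (0 of 209, which allows a share of up to 1.44%). Such a case needs a Runx3-bound region that spans the gap, so the 0 does not describe H3K4me1 beyond that region. The cover by position that follows counts all H3K4me1-marked regions. By position, 77.5% of the gene starts of marked promoter regions had H3K4me1 at 1 kb upstream and 74.2% at 500 bp upstream. Cover fell to 28.2% at the start and was 25.4% at 1 kb downstream. These levels follow in part from the choice of the members. Over all gene starts, cover was 4.71% at 1 kb upstream, 1.29% at the start and 3.47% at 1 kb downstream. At unmarked promoter regions it was 8.34%, 0.127% and 5.86% at these positions, where the low value at the start is set by the choice of regions that touch no H3K4me1. The order of the sides did not hold farther out. At 2 kb upstream and downstream, cover was 3.66% and 4.47% over all gene starts and 7.58% and 11.3% at unmarked promoter regions. At marked promoter regions it was 34.0% and 19.1%.

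**Figure D1:**
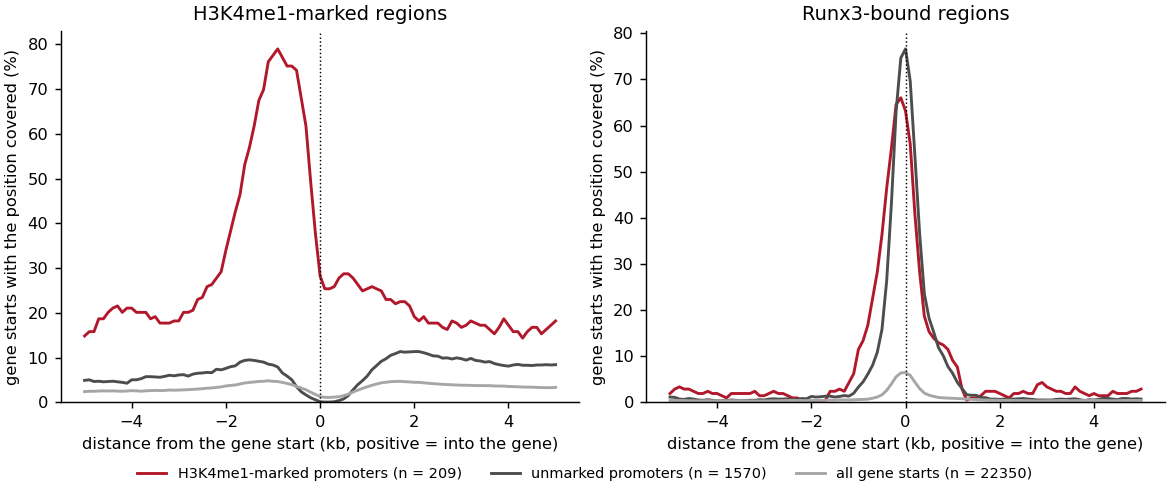
Share of gene starts (%) at which a position is covered by an H3K4me1-marked region (left) or a Runx3-bound region (right), against distance from the gene start (kb, in the direction of the gene), for marked promoter regions, unmarked promoter regions and all gene starts. H3K4me1 cover of the marked promoters was 77.5% at 1 kb upstream and 25.4% at 1 kb downstream. Runx3 cover had its maximum 100 bp upstream of the start at marked promoters (66.0%) and at the start at unmarked ones (76.6%).

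Runx3 itself was also shifted upstream at marked promoters. The choice of the members can set part of this, since each had to touch H3K4me1. Over all gene starts, H3K4me1 cover was lower at the start (1.29%) than 1 kb upstream (4.71%) or downstream (3.47%). How much of the differences below follows from the choice was not tested. The median centre was 105 bp upstream of the gene start (quartiles 312 bp upstream and 66 bp downstream), compared to 14 bp upstream at unmarked promoters (quartiles 120 bp upstream and 132.5 bp downstream). Of the members, 31.6% were centred downstream of the start, compared to 46.3% of unmarked promoter regions, a difference of -14.7 percentage points (interval -21.1 to -7.70). Members also lay farther out, with 56.0% centred within 250 bp of the start compared to 71.1% (difference -15.2 points, -22.3 to -8.22). The annotation at the centre moved accordingly. The centre was intergenic in 60.8% of members and in 45.03% of unmarked regions (difference 15.7 points, 8.54 to 22.6), and lay in a UTR exon in 14.4% and 29.2% (difference -14.9 points, -19.6 to -9.05). Seen from the regions, 14.6% of the 980 promoter regions centred upstream were marked and 8.26% of the 799 centred at or downstream of the start (difference 6.33 points, 3.37 to 9.24). The shift depended on how a start was defined. With any annotated transcript start of a protein-coding gene in place of the 5' end of the gene, the difference in downstream centres was -3.11 points (-8.24 to 2.24).

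**Figure D2:**
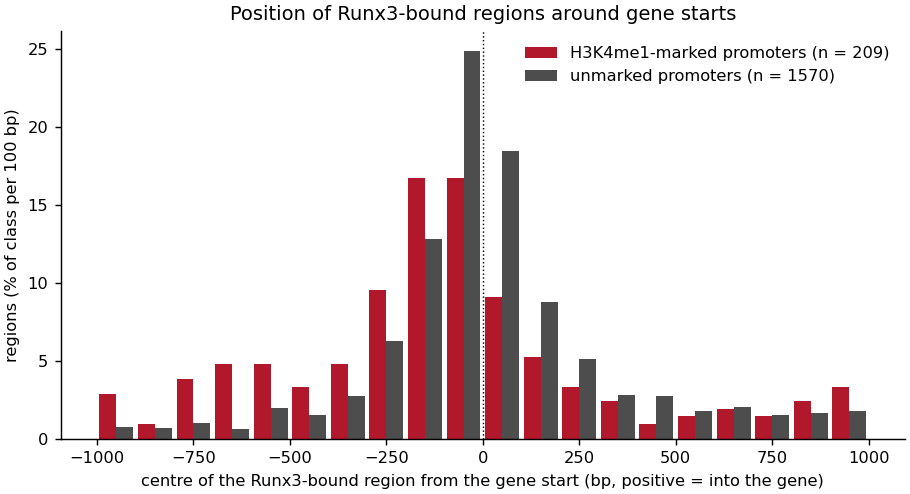
Distribution of the centres of Runx3-bound regions around the gene start, as the share of each class (%) per 100 bp, for 209 marked and 1570 unmarked promoter regions. Marked promoter regions had 39.2% of their centres in the 250 bp upstream of the start and 16.7% in the 250 bp downstream, compared to 41.5% and 29.8% of the unmarked ones.

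CpG content set the marked promoters apart most clearly. It was measured as the CpG observed/expected ratio within 500 bp to either side of the gene start, and starts under 0.6 were called CpG-poor. Of the members, 125 (59.8%) had a CpG-poor start, compared to 17.4% of unmarked promoter regions, a difference of 42.4 points (interval 35.4 to 49.1). The median ratio was 0.415 at marked and 0.774 at unmarked promoter regions, and 0.549 over all gene starts, of which 54.4% were CpG-poor. Marked promoters thus had a share of CpG-poor starts near that of all genes, and it was the unmarked ones that were mostly CpG-rich. Among promoter regions at CpG-poor starts, 31.4% of 398 were marked, compared to 6.08% of 1381 at CpG-rich starts (difference 25.3 points, 20.8 to 30.2).

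**Figure D3:**
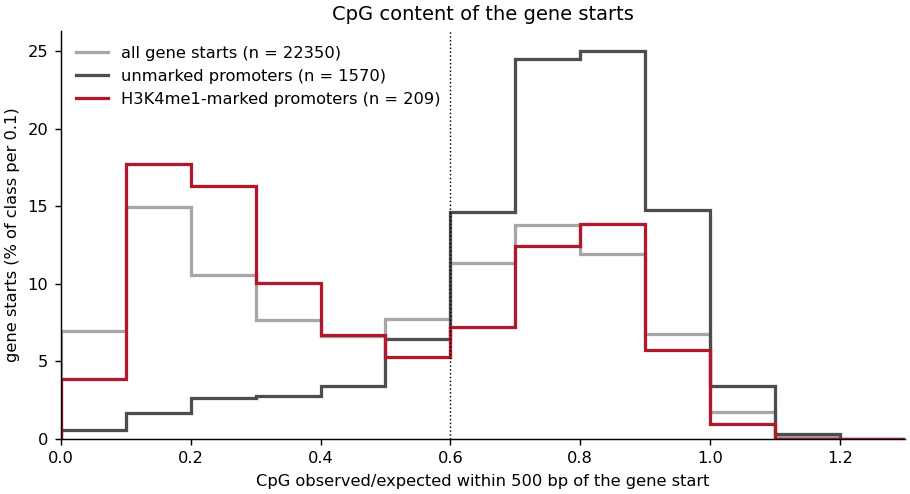
CpG observed/expected ratio within 500 bp of the gene start, as the share of each class (%) per 0.1 of the ratio, for marked promoter regions, unmarked promoter regions and all gene starts, with the limit of 0.6 as a dotted line. Marked promoters form a low and a high group, with 59.8% under the limit, whereas 17.4% of unmarked promoters lie under it.

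The mark also lay in a different place in the CpG classes. Among the 125 members with a CpG-poor start, H3K4me1 covered the start in 58 (46.4%, interval 37.9 to 55.1%), lay upstream in 61 and downstream in 6. Among the 84 with a CpG-rich start it covered the start in 1 (1.19%, 0.210 to 6.44%), lay upstream in 67 (79.8%, 70.0 to 87.0%) and downstream in 16. This followed the pattern over all genes, where 2.26% of CpG-poor and 0.137% of CpG-rich starts lay inside an H3K4me1-marked region. Members whose start was covered also differed from those with upstream H3K4me1 in that 52.5% compared to 10.9% were centred downstream of the start (difference 41.6 points, 27.5 to 54.5), a side that the arrangement partly sets. In covered starts H3K4me1 held a median of 100% of the Runx3-bound region and in upstream arrangements 32.8%.

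Gene starts with H3K4me1 but without Runx3 were examined for comparison. Of the 491 gene starts with an H3K4me1-marked region within 250 bp and no Runx3-bound region, 68.2% (interval 64.0 to 72.2%) were CpG-poor. With both present, 76.9% of 160 starts (69.8 to 82.7%) were CpG-poor. Within the CpG-poor class, a Runx3-bound region lay at 26.9% (23 to 31.1%) of the 458 starts with H3K4me1 within 250 bp and at 2.54% (2.27 to 2.84%) of the 11691 without. In the CpG-rich class these shares were 19.2% (14.2 to 25.3%) of 193 and 15.2% (14.5 to 15.9%) of 10008. At CpG-poor starts a Runx3-bound region was thus more frequent where H3K4me1 was near, while at CpG-rich starts the intervals of both shares overlapped. Nearness to H3K4me1 is part of how the members were chosen, so these shares are a description.

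The RUNX motif was about as frequent in both promoter classes. Within the central 200 bp, any form was found in 150 members (71.8%, interval 65.3 to 77.4%), in 70.3% of unmarked promoter regions (difference 1.45 points, -5.37 to 7.57) and in 81.3% of marked distal regions (difference -9.50 points, -16.1 to -3.71). Over all gene starts, 36.7% held a RUNX motif within 100 bp of the start. Of the members, 59 held none in this window, 89 held 1, 43 held 2 and 18 held 3 or more. Per 100 members, 36.8 motifs lay in the 50 bp just beyond the centre of the region, compared to 5.74 and 12.9 in the bins farthest from it on either side. The same central bin held 31.7 per 100 unmarked promoter regions and 38.8 per 100 marked distal regions. Of the 238 motifs in the members, 71.4% (interval 65.4 to 76.8%) lay upstream of the gene start and 52.9% (46.6 to 59.2%) read in the direction of the gene. In unmarked promoter regions these shares were 49.3% and 54.8%, and 54.0% of motifs in marked distal regions read in that direction. The upstream share follows in part from where the regions were centred, since only the central 200 bp were searched.

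Which form of the motif was present differed. TGTGGT was found in 43.1% of members compared to 21.5% of unmarked promoter regions (difference 21.6 points, interval 14.7 to 28.7) and 63.0% of marked distal regions (difference -20.0 points, -26.6 to -13.0). The CpG-containing forms showed the opposite order. TGCGGT was found in 14.4%, 27.1% and 8.69% of the 3 classes and TGCGGC in 12.9%, 24.9% and 3.96%. The differences to unmarked promoters were -12.8 points (-17.5 to -6.97) and -12.0 points (-16.5 to -6.36). TGTGGC was found in 21.5% of members and 18.03% of unmarked promoter regions (difference 3.51 points, -1.90 to 9.83). Within 100 bp of all gene starts, TGTGGT was found at 10.1%, TGTGGC at 13.2%, TGCGGT at 5.57% and TGCGGC at 13.3%. Marked promoters were intermediate between unmarked promoters and marked distal regions in all 4 forms, although for TGTGGC the interval of the difference to unmarked promoters included 0.

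The forms were then compared within CpG classes, since CpG-poor sequence holds fewer of the CpG-containing forms. At CpG-poor starts, TGTGGT was found in 51.2% of 125 marked and 40.7% of 273 unmarked promoter regions (difference 10.5 points, interval 0.0464 to 20.8). At CpG-rich starts it was found in 31.0% of 84 and 17.4% of 1297 (difference 13.5 points, 4.40 to 24.2). The difference was thus smaller within classes than the 21.6 points over both, and at CpG-poor starts its interval ended just above 0. TGCGGT differed at CpG-rich starts (15.5% compared to 29.0%, difference -13.5 points, -20.2 to -3.98), and at CpG-poor starts its interval included 0 (13.6% compared to 18.3%, difference -4.72 points, -11.8 to 3.50). TGCGGC differed at CpG-poor starts (5.60% compared to 12.8%, difference -7.22 points, -12.5 to -0.717), and at CpG-rich starts its interval included 0 (23.8% compared to 27.5%, difference -3.64 points, -11.9 to 6.76).

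**Figure D4:**
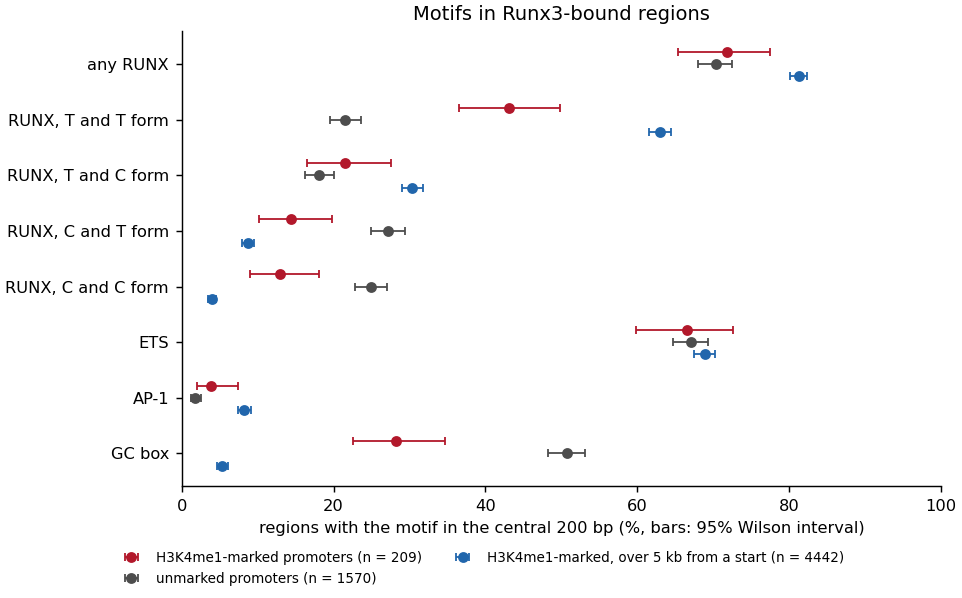
Share of Runx3-bound regions (%) with each motif in the central 200 bp, with 95% Wilson intervals, for marked promoter, unmarked promoter and marked distal regions. The T and T form of the RUNX motif, TGTGGT, was found in 43.1%, 21.5% and 63.0% of the 3 classes.

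The GC box GGGCGG, the site of SP and KLF family factors, was found in 28.2% of members, 50.7% of unmarked promoter regions (difference -22.5 points, interval -28.7 to -15.6), 5.34% of marked distal regions and 40.0% of all gene starts. At CpG-poor starts the interval of its difference to unmarked promoters included 0 (20.8% compared to 29.3%, -8.50 points, -16.9 to 0.917). The ETS motif was found in 66.5% of members and 67.0% of unmarked promoter regions (difference -0.499 points, -7.53 to 5.996), with 51.9% at all gene starts. In the central 100 bp this difference was -9.40 points (-16.1 to -2.26). AP-1 was found in 8 members (3.83%), all with a CpG-poor start, and in 1.78% of unmarked promoter regions (difference 2.04 points, 0.0122 to 5.63), a difference whose interval included 0 at CpG-poor starts (3.84 points, -0.248 to 9.71), in the central 100 bp and under 2 kb. Its share at all gene starts was 2.64%. Pairs of RUNX motifs with a gap of at most 50 bp were found in 23.4% of members and 15.4% of unmarked promoter regions (difference 8.10 points, 2.54 to 14.5), and within each CpG class the interval of this difference included 0. RUNX with ETS at such a gap was found in 33.5% and 32.9% (difference 0.563 points, -5.93 to 7.59).

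Marked promoters more often had further Runx3 binding nearby. Another Runx3-bound region was centred within 10 kb of 38.8% of members and 22.9% of unmarked promoter regions (difference 15.8 points, interval 9.13 to 22.9). Marked distal regions had such a neighbour in 39.5% (difference -0.776 points, -7.28 to 6.13). The difference was present at CpG-poor starts (41.6% compared to 29.7%, 11.9 points, 1.91 to 22.1) and at CpG-rich starts (34.5% compared to 21.5%, 13.0 points, 3.44 to 23.9). Of the 119 neighbours counted around members, 61.3% were themselves marked, compared to 40.4% of the 455 around unmarked promoter regions (difference 20.9 points, 10.8 to 30.3), although neighbours of nearby members are counted more than once. Socs1 and Tnp2, which lie side by side on chromosome 16, each had a member with 4 further Runx3-bound regions within 10 kb. A protein-coding start on the other strand within 1 kb of the nearest start, divergent or overlapping, was rare among members (4.31% compared to 14.9%, difference -10.6 points, -13.3 to -6.56). This difference was -8.55 points (-13.3 to -0.434) at CpG-rich starts, and at CpG-poor starts it was -3.90 points with an interval that included 0 (-7.46 to 0.681). Median width was 579 bp in members, 542 bp at unmarked promoters and 537 bp at marked distal sites.

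In all, 90 differences of this kind were computed between classes or within the members, and the interval of 47 left out 0. With so many, some intervals can be expected to leave out 0 by counting error alone.

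Lymphocyte genes were described by 9 lists of T cell and effector functions with 319 genes. A marked promoter region lay at 29 of these genes (9.09%, interval 6.40 to 12.7%), beside 0.982% of all protein-coding gene names. An unmarked promoter region lay at 62 of them (19.4%), beside 7.89% of all gene names, so that unmarked Runx3 binding was also more frequent at list genes. The mark itself was more frequent there too. With or without Runx3, H3K4me1 lay within 1 kb of the start of 99 list genes (31.0%), beside 8.29% of all gene names. How much of the excess of marked promoter regions follows from this was not tested. Of the list genes with any Runx3-bound promoter region, 31.9% (23.2 to 42.0%) were marked, compared to 11.1% (9.76 to 12.5%) of all bound genes and 1 of 35 (2.86%, 0.506 to 14.5%) of bound genes for ribosomal, mitochondrial ribosomal or proteasome proteins. CpG content moved with this count. Of the 29 genes, 24 had a CpG-poor start, as had 44 of the 62 with an unmarked region, and 60.8% of all list genes compared to 11.8% of the 195 housekeeping genes. Within CpG-poor list genes 35.3% (25 to 47.2%) of the 68 bound ones were marked, near the 30.5% (26.3 to 35.0%) of all 420 bound CpG-poor starts, and the intervals overlap. Within CpG-rich list genes 5 of the 23 bound ones were marked (21.7%, 9.66 to 41.9%). Among all 1556 bound CpG-rich starts the share was 5.78% (4.73 to 7.06%), and these intervals do not overlap. Of all CpG-poor genes, whether bound or not, 12.4% (8.46 to 17.7%) of the 194 in the lists had a marked promoter region, compared to 1.05% (0.887 to 1.25%) of all CpG-poor starts.

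**Figure D5:**
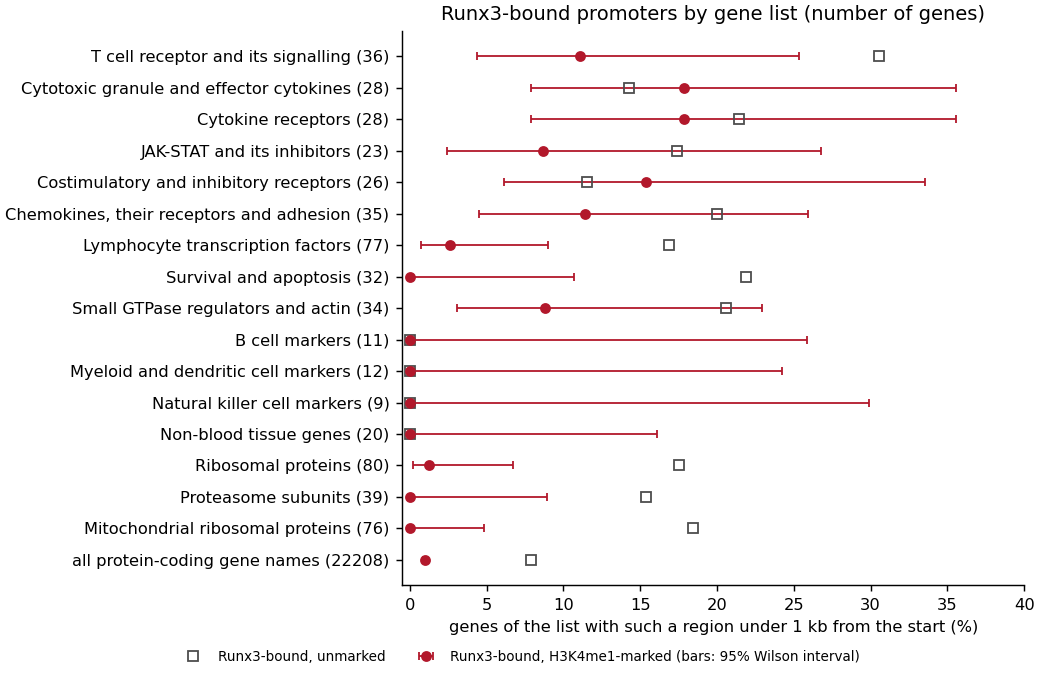
Share of the genes of each list (%) with a marked promoter region (filled points, 95% Wilson intervals) or an unmarked promoter region (open squares) under 1 kb from the start, with the number of genes in each list and all gene names at the bottom. Marked promoter regions were found at 8.70 to 17.9% of genes in 7 lymphocyte lists, at 2.60% of lymphocyte transcription factors and at 0 of 32 survival genes.

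The 28 members at these genes (Gimap1 and Gimap7 share 1) were compared with the other 181 in 6 measures. A CpG-poor start was found in 82.1% and 56.4% (difference 25.8 points, interval 6.72 to 38.1). The intervals of 4 other differences included 0 and were wide. TGTGGT was found in 46.4% and 42.5% (difference 3.89 points, -14.5 to 22.97), the ETS motif in 82.1% and 64.1% (difference 18.1 points, -0.878 to 30.4), a neighbour within 10 kb in 50% and 37.0% (difference 13.0 points, -5.83 to 31.6) and a centre downstream of the start in 25% and 32.6% (difference -7.60 points, -21.8 to 11.8). Any RUNX motif was found in 89.3% and 69.1% (difference 20.2 points, 2.59 to 30.2). S1pr4, Txk and Klf13 were the 3 without one. H3K4me1 covered the start in 8, lay upstream in 19 and downstream in 1.

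Effector genes of cytotoxic cells were among those with the mark over the start. At Prf1, which encodes the pore-forming protein perforin, the Runx3-bound region was 463 bp wide, centred 45 bp upstream of the start and lay wholly within an H3K4me1-marked region of 2701 bp that reached 1010 bp into the gene. At Ifng, the gene of interferon gamma, a region of 767 bp centred 233 bp upstream lay wholly within H3K4me1 of 3523 bp that reached 2079 bp into the gene. At Gzmb, the gene of the protease granzyme B, a region of 609 bp centred 150 bp upstream was covered to 88.2%, and H3K4me1 ended 82 bp past the start. Unc13d, a priming factor of granule release, had a region of 737 bp centred 551 bp upstream, with H3K4me1 upstream only. At Cst7, the gene of cystatin F, an inhibitor of granule proteases, a region of 478 bp centred 36 bp upstream was covered to 24.9%, also from the upstream side. These were the 5 of 28 genes of this list, of which Prf1 had the narrowest region and was added to the 4 widest after its values were seen. The 4 list genes with an unmarked region were Gzmc, Nkg7, Ctsw and Lta.

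Chemokine genes showed both arrangements. Ccl4, a chemokine of activated CD8-TC, had a region of 640 bp centred 318 bp upstream and wholly inside H3K4me1 of 3662 bp that covered the start. Xcl1, the gene of lymphotactin, had a region of 513 bp centred 334 bp upstream, covered to 72.5%, with H3K4me1 ending 219 bp before the start. Cx3cr1, the fractalkine receptor of effector cells, had a region of 413 bp centred 119 bp upstream, wholly inside H3K4me1. S1pr4, a sphingosine-1-phosphate receptor, had one of 520 bp centred 31 bp upstream, where H3K4me1 ended at the centre. These were 4 of 35 genes, and unmarked regions lay at 7, among them Ccr7, Cxcr3 and S1pr1.

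Cytokine receptor genes, 5 of 28 on their list, mostly had upstream H3K4me1. Il2ra and Il2rb encode the alpha and beta chains of the IL-2 receptor, through which the cells were grown. The Il2ra region was 739 bp wide, centred 67 bp upstream and covered to 52.0%, and the Il2rb region was 579 bp wide, centred 136 bp upstream and covered to 56.5%. Both H3K4me1-marked regions ended before the start, by 53 and 99 bp. Il2rg, the common gamma chain, had an unmarked region instead. Ifngr2, a chain of the interferon gamma receptor, had the widest region of the list, 1051 bp centred 762 bp upstream. Il10rb, a chain of the IL-10 receptor, had a region of 649 bp centred 176 bp downstream of the start in a coding exon, covered to 13.3%. Il7r, the IL-7 receptor alpha chain, was the one with H3K4me1 over the start.

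Signalling genes downstream of these receptors included Socs1, which encodes an inhibitor of JAK kinases. The Socs1 region was 1019 bp wide, centred 782 bp upstream of the start and covered to 39.0% by H3K4me1 that lay upstream only. Its start was CpG-rich by the limit used, with a ratio of 0.660. Unmarked regions of the same list of 23 genes lay at Jak3, Stat2, Cish and Pias4.

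Receptors of costimulation and inhibition were Tigit, Btla, Cd96 and Tnfrsf9, 4 of 26 genes. Tigit, an inhibitory receptor, had a region of 798 bp centred 7 bp downstream of the start with 3 RUNX motifs, and Btla, another inhibitory receptor, one of 520 bp centred 117 bp upstream. H3K4me1 covered both starts. Cd96, a receptor that shares its ligand CD155 with Tigit, had a region of 802 bp of which 4.99% was covered, from the upstream side. Tnfrsf9 encodes the costimulatory receptor 4-1BB. Its region of 577 bp was centred 29 bp downstream of the start, shared by the gene Park7 on the other strand, and H3K4me1 lay downstream only, with an overlap of 2.25%.

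Genes of the T cell receptor pathway had H3K4me1 upstream only. Cd3d encodes a chain of the CD3 complex, Cd2 an adhesion receptor, Txk a TEC family kinase and Sh2d2a an adaptor protein. The Sh2d2a region was 882 bp wide and covered to 17.3%, the Txk region 624 bp and 28.8%, the Cd3d region 572 bp and 33.9%, and the Cd2 region 492 bp and 59.8%. All 4 starts were CpG-poor. Unmarked regions lay at 11 of the 36 genes, among them Lck, Lat and Fyn. Of 7 markers of CD8-TC (Cd3d, Cd3e, Cd3g, Cd8a, Cd8b1, Lck and Cd2), Cd3d and Cd2 had a marked and Lck an unmarked promoter region.

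Transcription factor genes were the lymphocyte list with the lowest share apart from survival genes. Marked promoter regions lay at 2 of 77, Runx1 and Klf13, whereas unmarked ones lay at 13, among them Runx3 itself, Tox, Bcl6 and Batf. The Runx1 region was 894 bp wide, centred 169 bp downstream of the start in an intron and covered to 12.5%. Klf13, a Krüppel-like factor, had the widest region of all members, 1512 bp, of which 3.37% was covered, and no RUNX motif in its central 200 bp. Survival genes had 0 of 32 marked, which allows a share of up to 9.38%, and 7 unmarked regions (21.9%), Mcl1 and Bax among them. Since 0.982% of all gene names were marked, a count of 0 in a list of this size lay near the background, whereas 7.89% of all gene names had an unmarked region.

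The list of small GTPase regulators had 3 of 34 genes. Arhgap15, a Rac regulator, had a region of 543 bp centred 109 bp upstream and covered to 59.3%. Gimap1 and Gimap7, GTPase genes of lymphocyte survival, shared a region of 505 bp. Rpl13a, a ribosomal protein gene, had a region of 916 bp covered to 7.53% that also lay under 1 kb from Flt3l, the gene of a haematopoietic growth factor.

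Lists of other cell types were examined as well. The B cell (11 genes), myeloid and dendritic cell (12), natural killer cell (9) and non-blood tissue (20) lists held 0 marked and 0 unmarked promoter regions, which allows a share of up to 5.77% of the 52 genes for each. Beside the 0.982% marked and 7.89% unmarked over all gene names, 0 marked genes in lists of this size is near the background. Outside the lists, some members did lie at genes known from other cells, and these were noticed after the values were seen. Sfpi1, the gene of the myeloid and B cell factor PU.1, had a region of 493 bp with 3 TGTGGT motifs, centred 675 bp downstream of the start in an intron. Aif1 and Mnda, known from myeloid cells, had regions of 498 and 433 bp wholly inside H3K4me1. Nfe2, an erythroid and megakaryocyte factor, had one of 897 bp with H3K4me1 over the start. Zp3r, Mylpf and Bpifb4, genes of sperm, muscle and airway epithelium, also had H3K4me1 over a CpG-poor start.

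The widest members were mostly partially marked and often had no RUNX motif at their centre. After Klf13 they were at Hjurp (1273 bp, a centromere chaperone), Soat2 (1199 bp, a cholesterol acyltransferase), Tspan32 (1194 bp, a tetraspanin), Iqgap2 (1173 bp), Ywhag (1133 bp, a 14-3-3 protein), Lsm4 (1128 bp, an RNA-processing protein), Atp6v1g2 (1090 bp, a proton pump subunit), Creb1 (1082 bp, a cAMP-responsive transcription factor) and Sytl1 (1070 bp, a synaptotagmin-like protein). Of these 10, 6 had no RUNX motif in the central 200 bp, a small part of regions this wide. Motifs outside that window do not enter this count. Tspan32 differed from the others in having 3 RUNX motifs and in lying wholly inside an H3K4me1-marked region, of 3193 bp, over a CpG-poor start.

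The members richest in RUNX motifs were not among the 10 widest. Ing1, a chromatin reader, and Ltb4r1, the leukotriene B4 receptor of effector T cells, had 5 RUNX motifs each in the central 200 bp. Kcnn4, a calcium-activated potassium channel of activated T cells, had 4, all TGTGGT. Lmna, the gene of lamin A, and Spag1 had 4 each. The Ltb4r1 region lay wholly inside H3K4me1 over a CpG-poor start, whereas the Ing1 region was covered to 5.21% at a CpG-rich start with a ratio of 0.916. The first set of sequences shows all 5 motifs of Ltb4r1, 4 of the 5 of Ing1 and 3 of the 4 each of Kcnn4 and Lmna, and none of Spag1, whose stretch was left out by the rule on exons.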

How the data were processed

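ChIP-seq libraries of IL-2-activated CD8-TC were made by the authors from chromatin sheared to about 300 bp and read in 40 to 42 bases. Per the paper's methods, reads were aligned to mm9 with ELAND, uniquely aligned reads of repeats were joined, and peaks over the NIS reads were called with MACS after the larger of both read sets had been scaled down. The deposited values are the start and end positions of the called regions, in bp, without read numbers or scores. Depth at a region, peak height and agreement between repeats were therefore not available here. A region bound in 1 repeat can thus be on the list, and repeated sequence is left out. By the read totals in the paper's methods, fewer reads entered peak calling for each antibody and for NIS than in resting CD8-TC. A mark can be present and not called, so unmarked means without called H3K4me1. The labels give 1 H3K4me1 library while their protocol speaks of repeats for each antibody, and on how many libraries that list rests is unknown.

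Gene starts, exons and sequence came from GENCODE vM1 on NCBIM37, the same assembly as mm9, for 22350 protein-coding genes on the autosomes and X. Coordinates count from 1. Motifs were searched on both strands of the central 200 bp of each region. Shares are given with 95% Wilson and differences with Newcombe intervals. The region classes, gene lists and measures were chosen with earlier results of these data known. Named genes were the list genes with values for at most 4 a list (in lists of 5 all are named), the 10 widest members, the 5 with most RUNX motifs, genes with 2 members and the 3 regions on either side of each limit. Alternatives were other distances, overlaps, start definitions, windows and CpG limits. A few items that these rules select are not reported here. Functions were tested on simulated data. Scripts ran under Python 3.11.15 with SciPy 1.17.1, NumPy 2.4.6 and pandas 2.3.3, and plots were drawn with matplotlib 3.10.9.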

Additional observations from a re-analysis of the deposited data

How the results depend on the processing

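The 16 results were recomputed under alternatives, giving 124 values, of which 93 were classed as the same. A share was the same within the interval of the value reported, and a count within 1.5 times. A difference was the same when its interval left out 0 on the same side. It was also the same when both intervals included 0, even if its direction changed. Any RUNX motif changed direction in this way at CpG-rich starts (-4.22 points compared to 1.45). The differences in CpG-poor starts, in TGTGGT and in having a further Runx3-bound region nearby kept their direction, with intervals without 0, under every alternative run for them. The number of marked promoter regions (209) was 365 under 2 kb, 394 with any transcript start, 102 with at least 50% overlap and 100 with the centre inside H3K4me1, and under 500 bp it stayed within 1.5 times. The marked share (11.7%) was 10.05%, 16.9%, 17.8%, 5.73% and 5.62% under 500 bp, under 2 kb, with any transcript start, at 50% overlap and with the centre inside. The share with H3K4me1 over the start (28.2%) was 45.7%, 52.9% and 52.0% with any transcript start, 50% overlap and the centre inside. The share of lymphocyte-list genes (9.09%) was 5.33% both at 50% overlap and with the centre inside, and 4.00% at CpG-rich starts, a split chosen after seeing the data. With any transcript start the interval of the difference in downstream centres included 0 (-3.11 points), and that in any RUNX motif left out 0 (5.97 points). The interval for TGCGGT included 0 at CpG-poor starts (-4.72 points), and the AP-1 difference was -1.62 points at CpG-rich starts, where 0 members held the motif. The interval for TGCGGC included 0 in the central 100 bp (-4.00 points) and at CpG-rich starts (-3.64 points), that for the GC box at CpG-poor starts (-8.50 points), and that for AP-1 under 2 kb (1.49 points), in the central 100 bp (1.37 points) and at CpG-poor starts (3.84 points). The interval for ETS left out 0 in the central 100 bp (-9.40 points). That for TGTGGC left out 0 under 2 kb (5.66 points), with any transcript start (8.26 points), at 50% overlap (10.6 points), with the centre inside (9.07 points) and over the whole region (11.7 points). The causes of these changes were not tested, beyond the fewer or more regions that each definition takes in.

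No paired analysis was possible because the repeats were joined before peaks were called. A stricter peak score was not run because the lists hold no score.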

Other observations

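The 2080 hexamers, pooled with their reverse complements, were also compared between the central 200 bp of marked and unmarked promoter regions, as a description made after the motifs above were known. The hexamer with the highest excess in marked regions was TGTGGT itself (43.1% compared to 21.5%), followed by GTGGTT (35.9% compared to 19.9%) and CTGTGG (39.7% compared to 24.5%), whose letters overlap it. The next in order do not hold the RUNX core. TCAGAG was found in 26.8% and 12.55%, and TCTGAG in 27.3% and 13.3%. TCACAG followed with 22.01% and 8.60%. At CpG-poor starts TCAGAG was found in 30.4% and 18.7%, TCTGAG in 28.8% and 19.05%, and TCACAG in 30.4% and 14.3%. What these hexamers stand for was not tested.

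Long H3K4me1-marked regions at members were few. The longest, at A430110L20Rik, spanned 7188 bp and reached 7042 bp into the gene. The S100a5 and S100a6 members, at genes of neighbouring calcium-binding proteins, shared 1 region of 5812 bp, which covered the S100a5 start and ended 140 bp before that of S100a6. At Pcx, the gene of pyruvate carboxylase, 5727 bp lay wholly upstream of a CpG-rich start.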
